A study of Mus musculus with 6 samples.

Results

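The ubiquitin-specific proteases other than Usp18 were examined in mouse acute myeloid leukaemia cells taken from recipients that had received oil or tamoxifen. The members were the rows of the deposited count table whose gene symbol starts with Usp followed by a digit, with Usp18 left out, which gave 55 of 23608 rows. Of these, 54 belong to the family of ubiquitin-specific proteases, though Usp39 lacks protease activity. The other 1, Usp6nl, is a Rab GTPase-activating protein that shares the start of its name only. The filter on low counts was passed by 43 members, among them Usp6nl.

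Leukaemia was produced in fetal liver cells of Usp18+/f UBCER-Cre mice with a GFP retrovirus encoding AE9a, a shortened form of the AML1-ETO fusion protein, and was passed into recipient mice. Both groups therefore carried AE9a, GFP, 1 floxed Usp18 allele and a Cre recombinase that is expressed from a promoter active in most tissues and activated by tamoxifen. When the recipients were sick they were injected with oil (genotype Usp18+/f in the labels) or with tamoxifen (genotype Usp18+/D, the floxed copy deleted), and c-Kit+ GFP+ spleen cells lacking lineage markers were sorted 3 days after the first injection, from 3 mice per group. Tamoxifen went to 1 group only, so the action of the drug and loss of the Usp18 copy cannot be told apart. The study was made to learn how loss of 1 copy of Usp18 alters expression in established leukaemia, and the comparison below is oil against tamoxifen.

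Ubiquitin is a small protein that is joined to other proteins, singly or in chains, and marks them for degradation by the proteasome or for a change of place or partner. Deubiquitinases cut it off again, and the ubiquitin-specific proteases, cysteine proteases with a common catalytic fold, are their largest family. Single members act on histones, repair factors, cyclins, receptors on endosomes or the proteasome, and many need a partner protein to be active. Usp18 belongs to the family by sequence but removes the ubiquitin-like protein ISG15 and restrains interferon receptor signalling.

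The libraries held 17118964 to 20741399 counts. Levels are given as CPM, counts scaled to a common total of the tested genes, and 3 counts corresponded to 0.145 to 0.177 CPM. Usp18 stood at 9.12, 11 and 11.2 CPM in oil 1, 3 and 4, against 15.1, 28.0 and 19.4 CPM in tamoxifen 1, 2 and 4. The libraries labelled tamoxifen thus held more Usp18 RNA than the oil libraries, opposite to the deletion in the label (log2 fold change 1.0 ± 0.23 SE, edgeR adjusted p = 0.0739, n = 3 per group; 1.04 and adjusted p = 0.00654 without tamoxifen 4). The count covers the whole gene and does not separate the floxed part from the rest. Tamoxifen 4 stood apart from the other tamoxifen libraries: chi-square per degree of freedom was 54.2 and 65.5 against tamoxifen 1 and 2, 17.5 between those libraries, and 7.15 to 9.75 among the oil libraries. Results are therefore also given without tamoxifen 4. Kit, the gate marker, was present at 439 to 451 CPM in the oil libraries, and tamoxifen 1, 2 and 4 held 651, 782 and 447 CPM of it. The leukocyte marker Ptprc was nearly absent, at 0.0514 to 0.679 CPM in the 6 libraries.

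The tested members covered a 446-fold range of level per kilobase of exon. The mean over the 6 libraries was highest for Usp25, at 70.8 CPM per kilobase, followed by Usp1 at 56.3, Usp24 at 52.5, Usp7 at 42.8, Usp39 at 34.8 and Usp5 at 32.5. Usp25, Usp1 and Usp24 ranked above the 90th percentile of all tested genes with a length. Usp25 acts on adaptors of immune receptors, Usp1 on the Fanconi anaemia proteins and PCNA, Usp7 on p53 and its ligase Mdm2, and Usp5 on ubiquitin chains that are attached to nothing. Usp39 is a part of the spliceosome without protease activity.

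At the low end stood Usp27x at 0.159 CPM per kilobase, Usp51 at 0.344, Usp28 at 0.677 and Usp53 at 0.820. Usp27x and Usp51 are relatives of Usp22, the histone protease of the SAGA coactivator complex, which itself was present at 9.90 CPM per kilobase. The median member had 8.69 CPM per kilobase and the median tested gene 8.90, and 20 of the 43 members were above the latter. Differences between neighbours in this order were not tested.

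**Figure D1:**
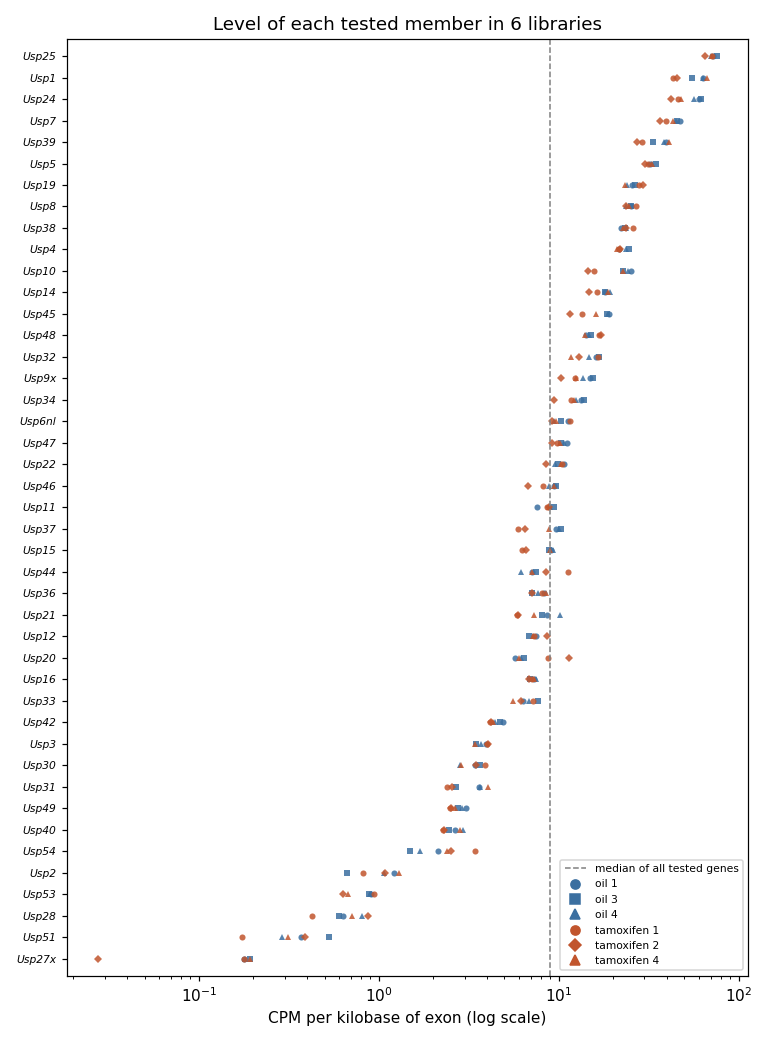
Level of each of the 43 tested members, in CPM per kilobase of exon on a log axis, with a point for each of the 6 libraries (blue oil, red tamoxifen) and a dashed line at 8.90, the median of all tested genes. Members spread from Usp25 at the top to Usp27x at the bottom, where 1 library, tamoxifen 2, lies apart from the other 5.

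The 12 members that failed the filter were at or near 0. Usp13, a relative of Usp5, was at 0 counts in all 6 libraries, as were Usp17la, Usp17lc, Usp17ld, Usp17le, Usp26, Usp29, Usp43 and the Y-linked Usp9y. Usp17lb held 0 to 4 counts, Usp50 0 to 1 and Usp35 4.5 to 9.5 counts per library. A count of 0 allows up to 3 counts, which covers counting error only. The Usp17-like genes are near-identical copies on chromosome 7, whose reads can be split or lost in counting, so their zeros are uncertain.

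No tested member passed the threshold of an adjusted p of 0.05 in edgeR's quasi-likelihood test, in either direction. Among all 11614 tested genes, 1.75% were called higher and 0.267% lower in tamoxifen. The adjusted p of the members ran from 0.0723 for Usp24 to 0.976 for Usp28. At an unadjusted p under 0.05, 2 members (4.65%) were higher and 8 (18.6%) were lower, against 12.6% and 7.99% of all tested genes. DESeq2 called 5 of 44 members, namely Usp54 higher (2.27%, against 5.73% of all genes it tested) and Usp21, Usp24, Usp37 and Usp45 lower (9.09%, against 1.70%).

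The members' fold changes were mostly negative. Of the 43, 30 (69.8%) had a negative log2 fold change and 13 a positive one, whereas 50% of all tested genes were negative. The median was -0.14, with quartiles of -0.25 and 0.03, against 0.00 for all tested genes. The change was under 0.2 on the log2 scale in 25 members and at least 0.5 in 2, and the median SE was 0.12. With signs left aside, the median change was 0.148 in members and 0.186 in all tested genes, so small changes were not particular to the family. No test was made over the list.

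**Figure D2:**
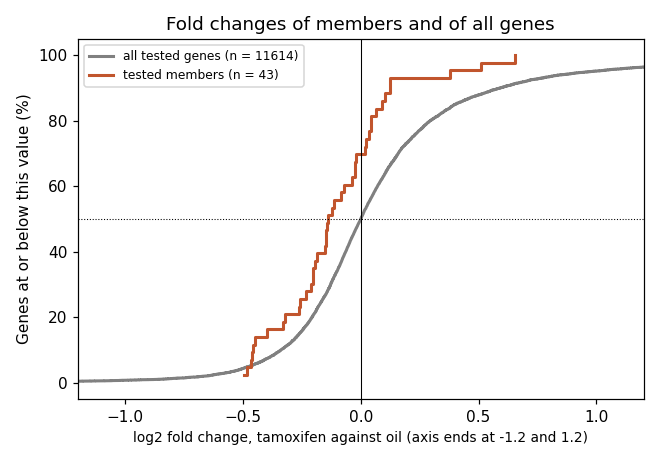
Cumulative share (vertical axis, percent) of the 43 tested members (red) and of all 11614 tested genes (grey) at or below each log2 fold change of tamoxifen against oil (horizontal axis, truncated at both ends). The red line crosses 50% at -0.14 and the grey line at 0.00, and members lie between -0.50 and 0.65.

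The shift was unequal among the tamoxifen libraries. The median deviation of members from the oil mean, on the log2 scale, was -0.11 in tamoxifen 1, -0.18 in tamoxifen 2 and -0.03 in tamoxifen 4, and 0.02, 0.01 and 0.00 in oil 1, 3 and 4. Together the members took 0.502%, 0.503% and 0.493% of the counts in oil 1, 3 and 4, against 0.452%, 0.413% and 0.469% in tamoxifen 1, 2 and 4. These shares did not overlap. Taken singly, 11.8% of all tested genes were lower and 13.3% higher in every tamoxifen library. Shares of other gene sets were not computed for comparison. Usp24 alone gave 14.1% to 15.2% of the members' counts in oil and 12.4% to 12.7% in tamoxifen, and without it the shares were 0.423% to 0.428% in oil and 0.362% to 0.410% in tamoxifen.

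In 30 of the 43 members (69.8%) tamoxifen 4 was the tamoxifen library nearest to the oil mean, compared with 57.4% of all tested genes, and it was so in each of the 10 members with an unadjusted p under 0.05, compared with 78.8% of all tested genes at that p. Tamoxifen 4 lay within the oil range in 18 members (41.9%; 38.3% of all tested genes). Tamoxifen 1 and 2 were both outside the oil range in 26 members (60.5%; 61.3% of all tested genes).

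Without tamoxifen 4, with 3 oil and 2 tamoxifen libraries, edgeR called 4 members higher (9.30%) and 14 lower (32.6%), beside 19.2% and 17.1% of the 11851 genes then tested. Those higher were Usp20, Usp44, Usp48 and Usp54. Those lower were Usp1, Usp7, Usp9x, Usp10, Usp14, Usp15, Usp21, Usp24, Usp31, Usp34, Usp37, Usp39, Usp45 and Usp46. Leaving out any other library gave no called member. The edgeR adjusted p then reached 0.341 for Usp37, 0.460 for Usp10 and 0.516 for Usp15. Tamoxifen 4 was often the tamoxifen library nearest to the oil mean. Without tamoxifen 4 the members' median log2 fold change was -0.12, against -0.14 with all libraries. Usp10 went from -0.45 to -0.67 and Usp24 from -0.40 to -0.44. Why more members were called without tamoxifen 4 was not tested.

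For 12 members the groups had separate ranges. Usp54 was higher in every tamoxifen library than in any oil library (2.33% of members, against 13.3% of all tested genes). Usp7, Usp9x, Usp10, Usp21, Usp24, Usp34, Usp37, Usp42, Usp45, Usp47 and Usp49 were lower in every tamoxifen library (25.6%, against 11.8%).

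**Figure D3:**
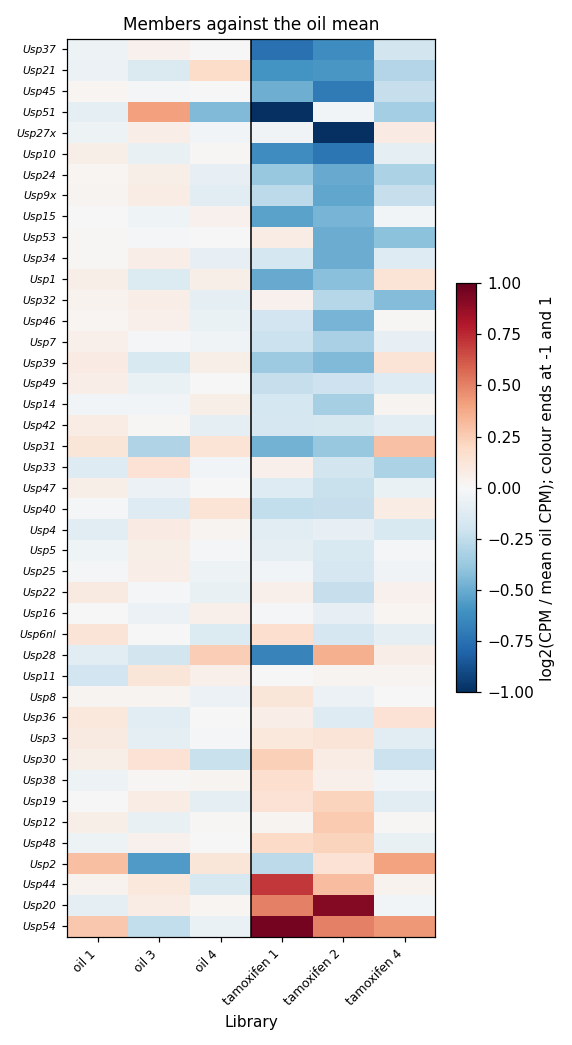
Each of the 43 tested members (rows, ordered by log2 fold change) in each of the 6 libraries (columns), coloured by log2 of its CPM over the mean oil CPM, blue below and red above, with colours ending at -1 and 1. The rows of Usp37, Usp45 and Usp10 are blue in tamoxifen 1 and 2 and paler in tamoxifen 4, while the bottom rows Usp44, Usp20 and Usp54 are red in tamoxifen 1 and 2.

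Among the proteases of the cell cycle, splicing and the nucleolus, 4 of 5 members had negative values (median -0.20; 50% of all tested genes were negative) and 2 were lower at an unadjusted p under 0.05, beside 7.99% of all tested genes. Usp37, which stabilises cyclin A at entry into S phase, lies on chromosome 1 (74435511 to 74544284, minus strand, build mm10). It stood at 107, 114 and 111 CPM in oil 1, 3 and 4, against 65.9, 72.0 and 97.4 CPM in tamoxifen 1, 2 and 4. All tamoxifen libraries were below all oil libraries, and the tamoxifen mean was 70.9% of the oil mean (log2 fold change -0.50 ± 0.14 SE, edgeR adjusted p = 0.124, n = 3 per group; adjusted p = 2.21e-04 without tamoxifen 4).

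Usp15, a protease of the TGF-beta pathway that also binds the recycling factor Sart3, was at 151, 146 and 155 CPM in oil and at 104, 109 and 148 CPM in tamoxifen 1, 2 and 4. Tamoxifen 4 fell inside the oil range, and the log2 fold change was -0.32 (edgeR adjusted p = 0.235) with it and -0.50 (edgeR adjusted p = 7.60e-04) without it. Its paralog Usp4 had a log2 fold change of -0.12, Usp39 of -0.19 and the nucleolar Usp36 of 0.03. Usp39 ranged from 81.5 to 96.2 CPM in oil and was at 70.7, 66.8 and 100 CPM in tamoxifen 1, 2 and 4, so that tamoxifen 4 was above every oil library.

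The chromatin and DNA repair proteases were the largest group, with 16 tested members, 12 of them negative (median -0.14) and 2 lower at an unadjusted p under 0.05, with the same 7.99% of all tested genes as background. Usp21, which acts on histone H2A, lies on chromosome 1 (171281945 to 171287991, minus strand, mm10). It stood at 40.8, 38.3 and 48.2 CPM in oil 1, 3 and 4, against 28.0, 28.4 and 34.7 CPM in tamoxifen 1, 2 and 4. The groups did not overlap (log2 fold change -0.48 ± 0.13 SE, edgeR adjusted p = 0.109, n = 3 per group). Usp45, a partner of the excision repair nuclease ERCC1, lies on chromosome 4 (21767156 to 21837872, plus strand, mm10). In oil 1, 3 and 4 it was at 119, 116 and 117 CPM, with an SD of 1.68 CPM, and tamoxifen 1, 2 and 4 held 83.6, 71.8 and 100 CPM. The groups did not overlap (log2 fold change -0.47 ± 0.12 SE, edgeR adjusted p = 0.100, n = 3 per group).

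Usp1 was at 237, 206 and 237 CPM in oil and at 160, 170 and 249 CPM in tamoxifen 1, 2 and 4. Tamoxifen 4 was the highest library of all 6 and the other tamoxifen libraries the lowest, and the log2 fold change was -0.23 (edgeR adjusted p = 0.438) with tamoxifen 4 and -0.46 (edgeR adjusted p = 0.00263) without it. Usp44, a protease of the spindle checkpoint, was at 28.6, 30.0 and 25 CPM in oil and at 45.5, 34.5 and 28.6 CPM in tamoxifen, with tamoxifen 4 inside the oil range (log2 fold change 0.38, edgeR adjusted p = 0.263; 0.52 and adjusted p = 0.0145 without tamoxifen 4). Usp7 was at 347 to 369 CPM in oil and 307, 284 and 337 CPM in tamoxifen 1, 2 and 4, a log2 fold change of -0.20 (edgeR adjusted p = 0.259) without overlap.

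The other chromatin and repair members had smaller differences or low counts. Usp51 and Usp27x had log2 fold changes of -0.46 each, with SEs of 0.45 and 0.58 on 7 to 24 and 2 to 17 counts per library, so that a change of this size was not detectable at their depth. For Usp27x the value rested on tamoxifen 2, at 0.118 CPM against 0.760 to 0.829 CPM in the other 5 libraries, and without that library it was 0.01. The histone proteases Usp3, Usp16, Usp22, Usp42 and Usp49 were at 0.04, -0.03, -0.04, -0.15 and -0.19. For Usp49, 51.2% of the exon bases also belong to Gm20517 on the same strand, so reads of these genes may have been split in counting. Usp11, Usp28, Usp47 and Usp48, which act on repair factors or on chromatin, were at 0.02, -0.02, -0.14 and 0.12. Usp48 was at 138, 147 and 143 CPM in oil against 163, 167 and 136 CPM in tamoxifen 1, 2 and 4, with tamoxifen 4 below the oil range (edgeR adjusted p = 0.486, and 0.0375 without tamoxifen 4).

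In the group of signalling and immune proteases, 9 of 10 members were tested, 6 were negative (median -0.15) and 3 were lower at an unadjusted p under 0.05 (7.99% of all tested genes). Usp10, a cytoplasmic protease of p53 that binds the stress granule protein G3bp1, lies on chromosome 8 (119910360 to 119957560, plus strand, mm10). It was at 241, 219 and 233 CPM in oil 1, 3 and 4, against 150, 140 and 217 CPM in tamoxifen 1, 2 and 4. Tamoxifen 4 was just below the lowest oil library and the others were far below it (log2 fold change -0.45 ± 0.16 SE, edgeR adjusted p = 0.192, n = 3 per group; -0.67 and adjusted p = 2.14e-04 without tamoxifen 4).

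Usp9x, an X-linked protease with the survival factor Mcl1 among its substrates, lies on chromosome X (13071498 to 13173328, plus strand, mm10). It was at 226, 234 and 206 CPM in oil and at 185, 155 and 189 CPM in tamoxifen 1, 2 and 4, all below the oil range (log2 fold change -0.33 ± 0.10 SE, edgeR adjusted p = 0.147, n = 3 per group). Usp34, which acts on axin in Wnt signalling, was at 232 to 257 CPM in oil and 217, 174 and 224 CPM in tamoxifen 1, 2 and 4 (log2 fold change -0.26, edgeR adjusted p = 0.239). Of its exon bases, 11.6% lie opposite Ahsa2, and the strand setting of the counting is not given in the sources used here. Usp25, the member with the highest level, differed little, at 373, 395 and 365 CPM in oil and 371, 337 and 369 CPM in tamoxifen (log2 fold change -0.07 ± 0.08 SE). Usp12 and Usp46, near relatives that share the partner Wdr48, had log2 fold changes of 0.10 and -0.20. Usp12 was at 31.6 to 34.7 CPM in oil and at 33.9, 39.9 and 33.5 CPM in tamoxifen 1, 2 and 4, higher than oil in tamoxifen 2 only. Usp2, which acts on cyclin D, was scarce, at 5.85, 3.20 and 5.17 CPM in oil against 3.95, 5.23 and 6.27 CPM in tamoxifen (log2 fold change 0.12 ± 0.29 SE). Usp31 and Usp38 had log2 fold changes of -0.15 and 0.06, and Usp31 was at 24.7, 26.3 and 42.0 CPM in tamoxifen 1, 2 and 4 around an oil range of 27.8 to 37.7 CPM.

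The proteases of endosomes, membranes and organelles had a positive median (0.03), with 4 of 6 tested members positive. Usp20, which returns receptors from endosomes to the cell surface, lies on chromosome 2 (30982279 to 31023586, plus strand, mm10). It was at 51.7, 58.0 and 55.8 CPM in oil 1, 3 and 4, against 78.4, 104 and 54.0 CPM in tamoxifen 1, 2 and 4. Tamoxifen 1 and 2 were above the oil range and tamoxifen 4 was within it (log2 fold change 0.51 ± 0.21 SE, edgeR adjusted p = 0.225, n = 3 per group). The value was 0.72 (edgeR adjusted p = 0.00115) without tamoxifen 4 and 0.27 (edgeR adjusted p = 0.538) without tamoxifen 2. Usp33, the closest relative of Usp20, had a log2 fold change of -0.14. Usp8 of endosomes, Usp19 of the endoplasmic reticulum and Usp30 of mitochondria had 0.02, 0.09 and 0.05, and Usp32 had -0.21, with 126, 100 and 90.2 CPM in tamoxifen 1, 2 and 4 against 114 to 128 CPM in oil.

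The tested proteases of free ubiquitin and the proteasome were both slightly lower in mean. Usp14, which trims chains on the proteasome, was at 152, 152 and 161 CPM in oil and at 137, 123 and 158 CPM in tamoxifen (log2 fold change -0.15, edgeR adjusted p = 0.422; adjusted p = 0.0295 without tamoxifen 4). A share of 26.0% of its exon bases lies opposite Thoc1. Usp5 had a log2 fold change of -0.08.

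Of the remaining members, Usp24 had the smallest p of the family. This large protease, for which the damage sensor DDB2 has been named as a substrate, lies on chromosome 4 (106316213 to 106441322, plus strand, mm10). It was at 749, 768 and 696 CPM in oil 1, 3 and 4, against 568, 519 and 592 CPM in tamoxifen 1, 2 and 4. The groups were 737 ± 37.3 and 560 ± 37.5 CPM (SD, n = 3) and did not overlap (log2 fold change -0.40 ± 0.09 SE, edgeR adjusted p = 0.0723; DESeq2 adjusted p = 0.00299). It was nearly as low in tamoxifen 4 as in the other tamoxifen libraries, and its log2 fold change was -0.44 without tamoxifen 4.

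Usp54 had the largest positive value. It lies on chromosome 14 (20548912 to 20641063, minus strand, mm10) and was at 19.4, 13.6 and 15.4 CPM in oil 1, 3 and 4, against 31.2, 22.9 and 21.8 CPM in tamoxifen 1, 2 and 4. The lowest tamoxifen library was above the highest oil library (log2 fold change 0.65 ± 0.19 SE, edgeR adjusted p = 0.125; DESeq2 adjusted p = 0.0333). Its relative Usp53, a protein of tight junctions, was at 11.1 to 11.3 CPM in oil and at 11.8, 7.94 and 8.45 CPM in tamoxifen (log2 fold change -0.26, edgeR adjusted p = 0.429). Usp40 had -0.12, and Usp6nl, the Rab GTPase-activating protein, -0.02.

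**Figure D4:**
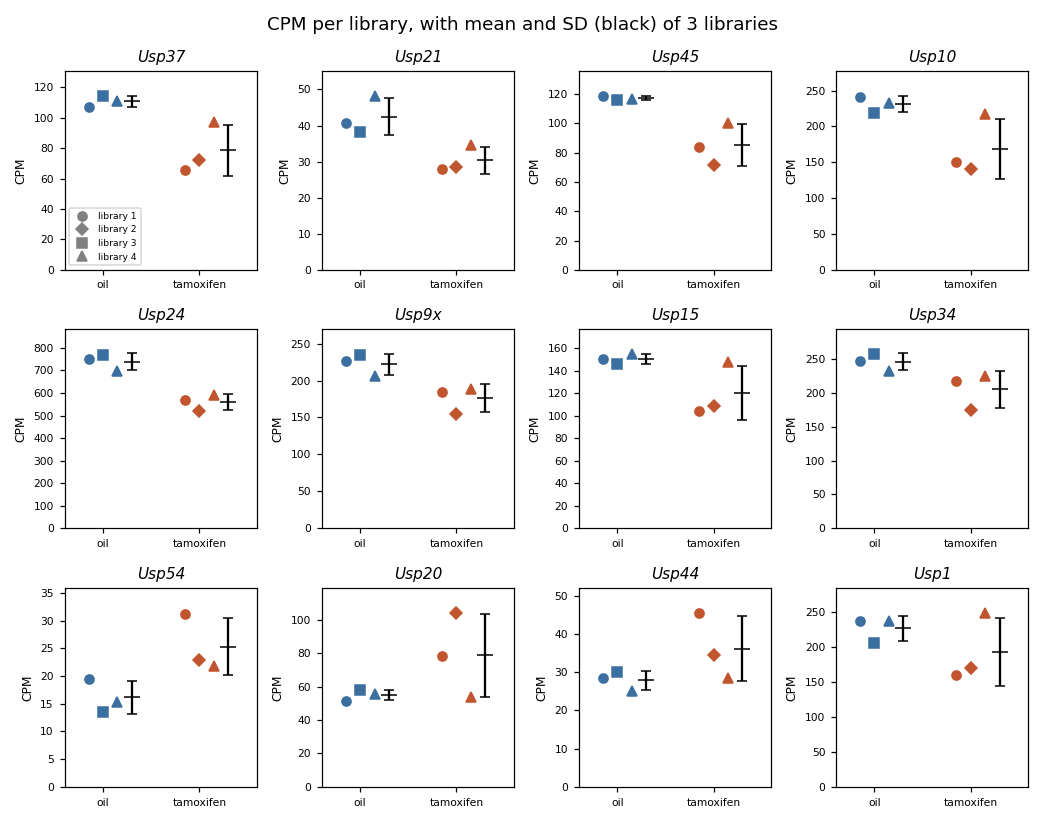
CPM of 12 members in each library (blue oil, red tamoxifen, marker shape by library number), with the mean and SD of 3 libraries per group in black and axes that start at 0. Tamoxifen 4 (red triangle) lies nearer to the oil libraries than tamoxifen 1 and 2 for Usp37, Usp10, Usp15 and Usp20, and at 592 CPM it remains below the oil range for Usp24.

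RefSeq windows of 300 bases around a gene start, most of them upstream of it, (build GRCm38.p6, the assembly of mm10) were found for 33 of the 43 tested members, 34 windows in all. Those of Usp37 and Usp24 (lower in mean) and of Usp20 and Usp54 (higher in mean) are shown to set a typical window of the family beside an unlike one. They lie at chr1:74505772-74506071 (minus strand), chr4:106315963-106316262 (plus), chr2:30982029-30982328 (plus) and chr14:20618305-20618604 (minus). The windows of Usp37 and Usp54 lie inside the gene span given above. Capitals mark the dinucleotide CG.
Usp37: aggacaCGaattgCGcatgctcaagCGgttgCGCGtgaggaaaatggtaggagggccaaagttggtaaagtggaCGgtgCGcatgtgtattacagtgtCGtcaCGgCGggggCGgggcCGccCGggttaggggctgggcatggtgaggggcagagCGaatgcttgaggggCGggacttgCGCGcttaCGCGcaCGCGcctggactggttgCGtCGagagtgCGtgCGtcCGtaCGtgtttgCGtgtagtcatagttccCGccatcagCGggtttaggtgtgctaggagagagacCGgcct
Usp24: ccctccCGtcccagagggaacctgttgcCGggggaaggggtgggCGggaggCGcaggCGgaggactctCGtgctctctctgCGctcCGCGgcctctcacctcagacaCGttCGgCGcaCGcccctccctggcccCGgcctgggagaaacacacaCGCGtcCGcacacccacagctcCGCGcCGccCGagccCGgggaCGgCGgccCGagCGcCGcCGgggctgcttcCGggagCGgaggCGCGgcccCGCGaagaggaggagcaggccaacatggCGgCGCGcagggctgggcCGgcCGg
Usp20: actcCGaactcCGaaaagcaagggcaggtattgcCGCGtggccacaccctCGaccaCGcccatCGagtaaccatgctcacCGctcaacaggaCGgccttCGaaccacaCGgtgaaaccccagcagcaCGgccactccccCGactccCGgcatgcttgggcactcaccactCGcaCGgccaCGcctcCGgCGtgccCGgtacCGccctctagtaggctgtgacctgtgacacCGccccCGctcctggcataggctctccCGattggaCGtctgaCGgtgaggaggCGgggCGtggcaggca
Usp54: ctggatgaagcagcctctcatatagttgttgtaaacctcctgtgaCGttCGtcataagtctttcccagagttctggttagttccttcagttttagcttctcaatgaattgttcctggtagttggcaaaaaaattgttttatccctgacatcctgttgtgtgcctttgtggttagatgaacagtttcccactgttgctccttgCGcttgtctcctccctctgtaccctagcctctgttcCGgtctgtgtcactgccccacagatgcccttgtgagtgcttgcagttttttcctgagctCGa
The windows hold 31 CG dinucleotides in Usp37, 39 in Usp24, 28 in Usp20 and 5 in Usp54, and their GC contents are 62.0%, 76.7%, 66.3% and 46.7%.

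The family's windows had a median of 29.5 CG dinucleotides and a GC content of 65.7%, compared with 20 and 60.7% for the 11535 windows of tested genes and 7 and 52.7% for all 32851 windows. On either strand, the core GAAANNGAAA of the interferon-stimulated response element was found in 1 of 34 member windows (2.94%), that of Usp49, and in 3.44% of all windows. The STAT site TTCNNNGAA was found in 1 (2.94%), that of Usp27x, and in 8.30% of all windows. The E2F site TTTNGCGC was found in 0 member windows and in 1.38% of all, and CCAAT in 6 (17.6%) and in 37.4% of all. The windows of all genes had a lower GC content than those of the members, so these shares compare unlike sets. Matches were not counted for the windows of tested genes alone. These are matches of letters in 300 bases and say nothing about binding.

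The proteases were set beside the other deubiquitinases (OTU, UCH, Josephin, JAMM and related families), of which 31 of 37 listed genes were tested. At an unadjusted p under 0.05, edgeR found 1 higher (3.23%, against 12.6% of all tested genes) and 3 lower (9.68%, against 7.99%), at a median of -0.02 on the log2 scale, and none had an adjusted p under 0.05. DESeq2 called 0 of them higher (against 5.73% of all genes it tested) and 1 lower (3.23%, against 1.70%). Without tamoxifen 4, edgeR called 5 higher (16.1%, against 19.2% of all genes) and 7 lower (22.6%, against 17.1%). Josd2, of the Josephin family, was at 49.0, 48.1 and 46.2 CPM in oil and at 31.4, 34.0 and 38.3 CPM in tamoxifen (log2 fold change -0.47, edgeR adjusted p = 0.0688, and 0.00167 without tamoxifen 4; DESeq2 adjusted p = 0.00799). Its relative Josd1 was at 110 to 112 CPM in oil and 83.8, 87.4 and 101 CPM in tamoxifen (log2 fold change -0.29, edgeR adjusted p = 0.156, and 0.00305 without tamoxifen 4). Both were lower in every tamoxifen library than in any oil library. This held for 5 of the 31 tested genes of the list (16.1%, against 11.8% of all tested genes). The opposite, every tamoxifen library above every oil library, held for 4 (12.9%, against 13.3%). Otud1 was scarce, at 0.225 to 0.772 CPM in oil and 0.933 to 1.39 CPM in tamoxifen (log2 fold change 1.48, edgeR adjusted p = 0.193). The USP-fold genes whose names lie outside the pattern, Cyld, Uspl1 and Pan2, had log2 fold changes of -0.09, -0.04 and 0.03.

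Partners, cofactors and substrates of the proteases gave 25 tested genes with a median of -0.03, and at an unadjusted p under 0.05 there were 1 higher (4%, against 12.6% of all tested genes) and 4 lower (16%, against 7.99%), while none had an adjusted p under 0.05 in edgeR. DESeq2 called 1 higher (4%, against 5.73% of all genes it tested) and 0 lower (against 1.70%). Without tamoxifen 4, edgeR called 3 higher (12%, against 19.2% of all genes) and 7 lower (28%, against 17.1%). Mdm2, the p53 ligase on which Usp7 acts, was at 49.5, 62.5 and 55.4 CPM in oil and at 74.1, 75.4 and 69.6 CPM in tamoxifen (log2 fold change 0.39, edgeR adjusted p = 0.107, and 0.00916 without tamoxifen 4). It was higher in every tamoxifen library than in any oil library, 1 of 25 tested partners (4%, against 13.3% of all tested genes). Fancd2 and Fanci, the substrates of Usp1, had log2 fold changes of -0.50 and -0.51 (edgeR adjusted p = 0.223 and 0.217). Like Usp1 they were near the oil level in tamoxifen 4, with Fancd2 at 52.1 to 58.1 CPM in oil and at 34.3, 29.6 and 52.7 CPM in tamoxifen 1, 2 and 4. Sart3, which brings Usp4 and Usp15 to the spliceosome, was at 101, 89.5 and 96.8 CPM in oil and at 68.3, 65.0 and 88.2 CPM in tamoxifen (log2 fold change -0.38, edgeR adjusted p = 0.175, and 0.00117 without tamoxifen 4). Dmwd, a partner of Usp12 and Usp46, was at 14.8 to 19.8 CPM in oil and at 6.37, 5.23 and 14.8 CPM in tamoxifen (log2 fold change -0.94, edgeR adjusted p = 0.212). Without tamoxifen 4, the value for Dmwd was -1.55 (edgeR adjusted p = 3.00e-04).

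The cofactors Wdr48 (of Usp1, Usp12 and Usp46), G3bp1 (of Usp10), Gmps (of Usp7) and the SAGA subunits Atxn7l3 and Eny2 (of Usp22) had log2 fold changes of -0.13, -0.21, -0.11, 0.00 and 0.05. The other listed relatives of Atxn7l3, namely Atxn7, Atxn7l1, Atxn7l2 and Atxn7l3b, were at 0.17, 0.15, -0.02 and 0.01, and Wdr20 and G3bp2 at 0.04 and 0.03. Stam, Stam2 and Hgs, the endosomal partners of Usp8, were at 0.10, -0.01 and -0.03. Psmd2 and Adrm1 of the proteasome were at -0.26 and -0.14, the splicing factors Prpf3, Prpf4 and Prpf6 at -0.06, -0.20 and 0.06, and Trp53, which encodes p53, at -0.11. Wdr20rt failed the low-count filter.

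Some of the marker lists differed between the groups. Summed mast cell markers were at 1320 to 1500 CPM in oil and 1920 to 4800 CPM in tamoxifen. At an unadjusted p under 0.05 in edgeR, 6 of 8 were higher (75%, against 12.6% of all tested genes). Cpa3 was at 113 to 156 CPM in oil and at 354, 1060 and 294 CPM in tamoxifen 1, 2 and 4. Cd34, listed with Kit as a marker of the leukaemia cells, was at 8.41 to 11.7 CPM in oil and at 113, 134 and 41.8 CPM in tamoxifen 1, 2 and 4. Summed erythroid markers ranged from 3860 to 6010 CPM in oil and from 3100 to 7430 CPM in tamoxifen, and macrophage markers from 4.56 to 8.75 and from 7.07 to 14.9 CPM. The B cell markers reached 0.878 CPM and the neutrophil markers 0.978 CPM in sum, with Ly6g at 0 counts in every library. The T and NK cell markers were at 1.13 to 2.57 CPM in oil and 7.65 to 56.4 CPM in tamoxifen, which was mostly Nkg7, and 5 of the 8, Cd3e among them, were at 0 counts in every library. In bulk samples, fewer cells of a type and less RNA per cell cannot be told apart, and the part of these differences in the members' values was not tested.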

How the data were processed

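RNA of 6 samples of sorted AE9a leukaemia cells was sequenced. The values the authors deposited were estimated counts, with a row for each gene symbol, made with STAR and DESeq2 per the labels, which name build mm10; versions, counting program and strand setting are not given in the sources used here. Values were in steps of 0.5 and 25.9% to 27.3% of them were not whole, so they were rounded. A spreadsheet had turned 26 symbols into dates, and these rows were not named. Titles and columns number the samples differently; libraries carry the column numbers, and oil 3 and tamoxifen 2 were placed by the group in the column name. The labels call the samples biological replicates.

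Counts were tested in R 4.3.3 with edgeR 4.0.16: filterByExpr by group, TMM scaling, quasi-likelihood F test on all 11614 genes, Benjamini-Hochberg adjustment, two-sided, threshold 0.05. CPM is the count over the TMM-scaled total of tested genes. Levels per kilobase used the exon union of GENCODE M21 (GRCm38), which gave a length for 11409 tested genes. Limits from counts cover counting error only, because without molecular identifiers several reads can come from 1 molecule. Alternatives were DESeq2 1.42.0, limma-voom 3.58.1, other scalings and filters, unrounded counts, a replicate block and each library left out in turn. The scripts were tested on simulated data.

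The members, roles and gene lists (other deubiquitinases, USP-fold genes outside the pattern, partners, markers of leukaemia, B, T and NK, neutrophil, macrophage, erythroid and mast cells) were chosen with earlier results of these data known. Named were Usp18, the 6 highest and 6 lowest fold changes among members with a mean of at least 1 CPM, the 6 highest and 4 lowest levels per kilobase, every untested member, every other member once within its role group, up to 3 genes with the smallest p per further list, and partners of named members. Usp15, Usp34 and several others with small differences are given by library because the ranges, the unadjusted p or the fit without tamoxifen 4 set them apart, a choice made after their values were seen, as was that of the printed windows. Promoter windows came from RefSeq. A further short list is not reported here.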

Additional observations from a re-analysis of the deposited data

How the results depend on the processing

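Among all genes, 203 were higher and 31 lower in the edgeR fit; the counts were 743 and 221 with DESeq2, 48 and 6 with limma-voom, 372 and 61 without the low-count filter, 120 and 17 with a minimum mean of 50 counts, and 8 to 2278 and 0 to 2024 with a library left out, the highest without tamoxifen 4. Called members were 0 in both directions except for 1 higher and 4 lower with DESeq2, and ranged from 0 to 4 and from 0 to 14 with a library left out. Members at an unadjusted p under 0.05 were 1 higher with limma-voom and 4 lower with the replicate block, and 1 to 5 and 5 to 15 with a library left out. For the other deubiquitinases these counts were 2 higher with upper-quartile factors, DESeq2 and no filter, 0 higher with the minimum mean of 50 counts, 0 higher and 1 lower with the block, and 0 to 7 and 2 to 8 with a library left out. The members' median was -0.147 to -0.0746 with a library left out, the latter without tamoxifen 2. Usp18 passed the threshold with DESeq2 (0.99), without the filter (0.99) and without tamoxifen 4 (1.04), and ranged from 0.73 to 1.18 with a library left out. The cause of these shifts was not tested.

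Labels of the columns share only the numbers 1 and 4 between groups. The correlation of deviations from the group means was -0.13 for number 1 and 0.06 for number 4. With so few shared numbers, these values cannot decide whether the numbers pair the samples. In the fit with the replicate block, a library whose number occurs in 1 group only adds nothing to the group difference. That fit therefore compared the libraries numbered 1 and 4, and its values also reflect the loss of the other libraries. With the replicate block, Usp2, Usp3, Usp12, Usp22, Usp25, Usp27x and Usp6nl changed sign, to -0.130, -0.0459, -0.0195, 0.0419, 0.00388, 0.0339 and 0.0450. With a library left out, these ranges included 0: Usp2 -0.0980 to 0.302, Usp3 -0.00377 to 0.115, Usp8 -0.0323 to 0.0631, Usp11 -0.0706 to 0.0804, Usp16 -0.0577 to 0.00281, Usp22 -0.0856 to 0.050, Usp27x -0.807 to 0.00828, Usp28 -0.242 to 0.220, Usp30 -0.0616 to 0.161, Usp36 -0.0235 to 0.109, Usp6nl -0.129 to 0.0456, Uspl1 -0.0935 to 0.0207 and Pan2 -0.0536 to 0.0902. No member changed sign under another scaling, DESeq2, limma-voom, either filter or unrounded counts. Depth limits Usp27x and Usp51, with 2 to 24 counts per library.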
